A study of Mus musculus with 4 samples.

Results

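Crct1, Sprr1a, Msln, Phgr1, Sfn, Ly6d, Dsp and Perp are 8 genes of squamous, cornified or barrier-type epithelium, and they are described here in the mammary epithelium of mice with and without luminal deletion of Lats1 and Lats2. They are 8 of the 28693 genes measured, and each was matched by its symbol. They were chosen from the comparison of knockout with wild-type cells, because Crct1, Msln, Phgr1 and Sprr1a appear in knockout cells, so their levels in that comparison are given as a description without a test. Sprr1a was not specific to knockout cells: it was measured in the wild-type mice as well, and the hormone-sensing levels of knockout and wild-type mice overlapped.

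The study sequenced RNA of single live cells from mammary glands of adult nulliparous mice, with 2 WT mice and 2 LATS1/2 KO mice and 1 library for each mouse. WT mice were homozygous for floxed Lats1 (Lats1f/f) and floxed Lats2 (Lats2f/f), heterozygous for the EYFP reporter R26-lsl-EYFP, and had no Cre. LATS1/2 KO mice had the same floxed alleles together with Krt8-CreERT2, and their reporter was heterozygous in replicate 1 and homozygous in replicate 2. All mice received 2 mg of tamoxifen on each of 5 days and were collected 7 days after the last dose. The Krt8 promoter drives the recombinase in luminal cells, so basal cells are not its target, and EYFP RNA marks cells in which the reporter was switched on. A cell without an EYFP molecule is not shown to be unrecombined, since a transcript can be missed. Floxed alleles and tamoxifen were thus common to all mice, while Cre was present in the knockout mice only.

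The cornified envelope is the protein shell that replaces the plasma membrane of a dying keratinocyte at the surface of stratified epithelia. Its small proline-rich and late envelope proteins are encoded side by side in the epidermal differentiation complex, and they are cross-linked onto a scaffold that desmosomes anchor from cell to cell. The luminal layer of the mammary gland is a simple epithelium that does not cornify in health. LATS1 and LATS2 are the kinases of the Hippo pathway that hold back the coactivators YAP and TAZ, which act on DNA through TEAD factors.

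The members fall into 4 roles. Crct1 and Sprr1a are genes of the epidermal differentiation complex on chromosome 3 (GRCm38): Crct1 (ENSMUSG00000027913) lies at chr3:93014205-93015687 and encodes a cysteine-rich protein, and Sprr1a (ENSMUSG00000050359) lies at chr3:92483952-92485895 and encodes a small proline-rich envelope precursor, both on the minus strand. Dsp (ENSMUSG00000054889, chr13:38151294-38198577) encodes desmoplakin, which ties desmosomes to keratin filaments, and Perp (ENSMUSG00000019851, chr10:18845020-18857073) encodes a tetraspan desmosomal membrane protein that is also a p53 and p63 target. Ly6d (ENSMUSG00000034634, chr15:74762056-74763620) and Msln (ENSMUSG00000063011, chr17:25748613-25754378) encode GPI-anchored surface proteins, the second being mesothelin of the mesothelial lining. Sfn (ENSMUSG00000047281, chr4:133600556-133602168) encodes 14-3-3 sigma, an epithelial scaffold protein induced by p53, and Phgr1 (ENSMUSG00000046804, chr2:118772769-118778165) encodes a proline-, histidine- and glycine-rich protein known from the gut.

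Since the members are read from the cells of a pathway whose factors bind promoters, the bases just before the start sites were searched for the TEAD core CATTCC and the AP-1 site TGANTCA, each on both strands; the reverse complement of the first is GGAATG, and the second reads the same on both strands. RefSeq promoters of GRCm38.p6 were at hand for 4 of the 8 members, namely Sprr1a, Phgr1, Sfn and Dsp, with 250 bases before each start. Only the first and second of these held a match, and these are the promoters shown, with the matched letters in capitals. Sprr1a, at chr3:92485882-92486131 on the minus strand, held 2 matches to TGANTCA that begin 146 and 116 bases before the start. Phgr1, at chr2:118772524-118772773 on the plus strand, held 1 match to CATTCC that begins 100 bases before the start.
Sprr1a: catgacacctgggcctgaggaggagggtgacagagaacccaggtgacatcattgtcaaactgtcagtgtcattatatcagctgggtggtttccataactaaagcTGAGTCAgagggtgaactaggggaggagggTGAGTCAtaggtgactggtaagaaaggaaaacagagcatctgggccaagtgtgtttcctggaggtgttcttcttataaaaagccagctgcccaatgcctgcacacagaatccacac
Phgr1: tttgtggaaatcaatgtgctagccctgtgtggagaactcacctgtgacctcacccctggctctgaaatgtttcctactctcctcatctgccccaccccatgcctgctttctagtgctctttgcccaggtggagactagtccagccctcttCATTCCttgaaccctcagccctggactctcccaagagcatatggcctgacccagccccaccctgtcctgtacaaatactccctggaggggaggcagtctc
Of 32851 promoters of the same length, 12.6% held CATTCC or its complement and 6.75% held TGANTCA, so such matches are common, and they describe letters and not binding.

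Of 20324 barcodes, 18200 had more than 500 genes and under 20% mitochondrial UMIs, where a UMI is a tag that counts 1 captured RNA molecule. The 4 libraries held 38792520 to 46810771 UMIs in these cells, with a median of 5962.5 to 10141 UMIs per cell. Cells were assigned by marker genes, none of them a member, to luminal ER-negative, hormone-sensing (luminal ER-positive) and basal classes, and epithelial cells in which no class led by the required margin were kept as cells without a lineage. These 14866 epithelial cells numbered 4587 and 3354 in WT replicates 1 and 2, and 3548 and 3377 in LATS1/2 KO replicates 1 and 2. Knockout cells were assigned less cleanly: 1114 and 1067 cells lacked a lineage against 252 and 163 in WT, and 21.4% and 17.9% lay near the margin against 5.28% and 4.44%. Levels are given as CPM, a gene's UMIs relative to all UMIs of the same cells, scaled to a common total for every sum. Compared with TMM scaling, the correction for composition used in the tests, CPM ratios of knockout over WT lay higher by a median of 0.35 (log2) in luminal ER-negative cells and 0.12 in basal cells, and CPM ratios over luminal ER-negative cells within WT by 0.24 for hormone-sensing and 0.19 for basal cells. Of barcodes, 43 occurred in more than 1 library. The reads are 3' tags that may lie outside the deleted exons, so Lats1 and Lats2 do not check the labels here: Lats1 was at 25.8 and 25.6 CPM in WT and 16.5 and 19.3 CPM in knockout luminal ER-negative cells, and Lats2 was at 15.3 and 16.9 against 26.8 and 29.5 CPM. EYFP followed the labels, at 0.376 and 0.405 CPM in WT and 57.5 and 71.4 CPM in knockout luminal ER-negative cells.

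Crct1 was not detected in wild-type epithelium and was counted unevenly among the knockout classes. None of the 4587 and 3354 WT epithelial cells held a Crct1 UMI, which allows shares of cells with a UMI of up to 0.0654% and 0.0894%, while the 2 knockout libraries held 2281 and 3325 UMIs, or 66.8 and 93.2 CPM. Against a floor of 3 counts over the WT group this was at least 2340-fold higher. In luminal ER-negative cells the knockout levels were 16.1 and 9.07 CPM, and in hormone-sensing cells they were 67.4 and 220 CPM. The cells without a lineage held 143 and 221 CPM, and 1707 and 2695 of the UMIs, so most Crct1 RNA lay in cells that no class claimed. In basal cells only 9 and 1 UMIs were counted (5.89 and 0.488 CPM), at least 1.23-fold higher than in WT.

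Free RNA in droplets gives molecules to cells that do not express a gene, and the stromal and immune cells served as the reference for it; what part of their level is free RNA was not tested. In knockout non-epithelial cells Crct1 stood at 6.46 and 8.05 CPM, with a UMI in 3.05% and 2.01% of cells. The basal shares of 2.89% and 0.337% were at or below these and are not read as expression. The luminal ER-negative shares of 6.5% and 3.43% were above them, although those cells were deeper, with medians of 7467 and 8056 against 4006 and 4019 UMIs, and after each cell was thinned to 2000 UMIs the shares were 2.54% and 1.67% against 1.22% and 1.37% in non-epithelial cells. The 2 knockout libraries thus differ in how far luminal ER-negative Crct1 clears the background, while the cells without a lineage, at 8.19% and 4.28% thinned, clear it in both.

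**Figure D1:**
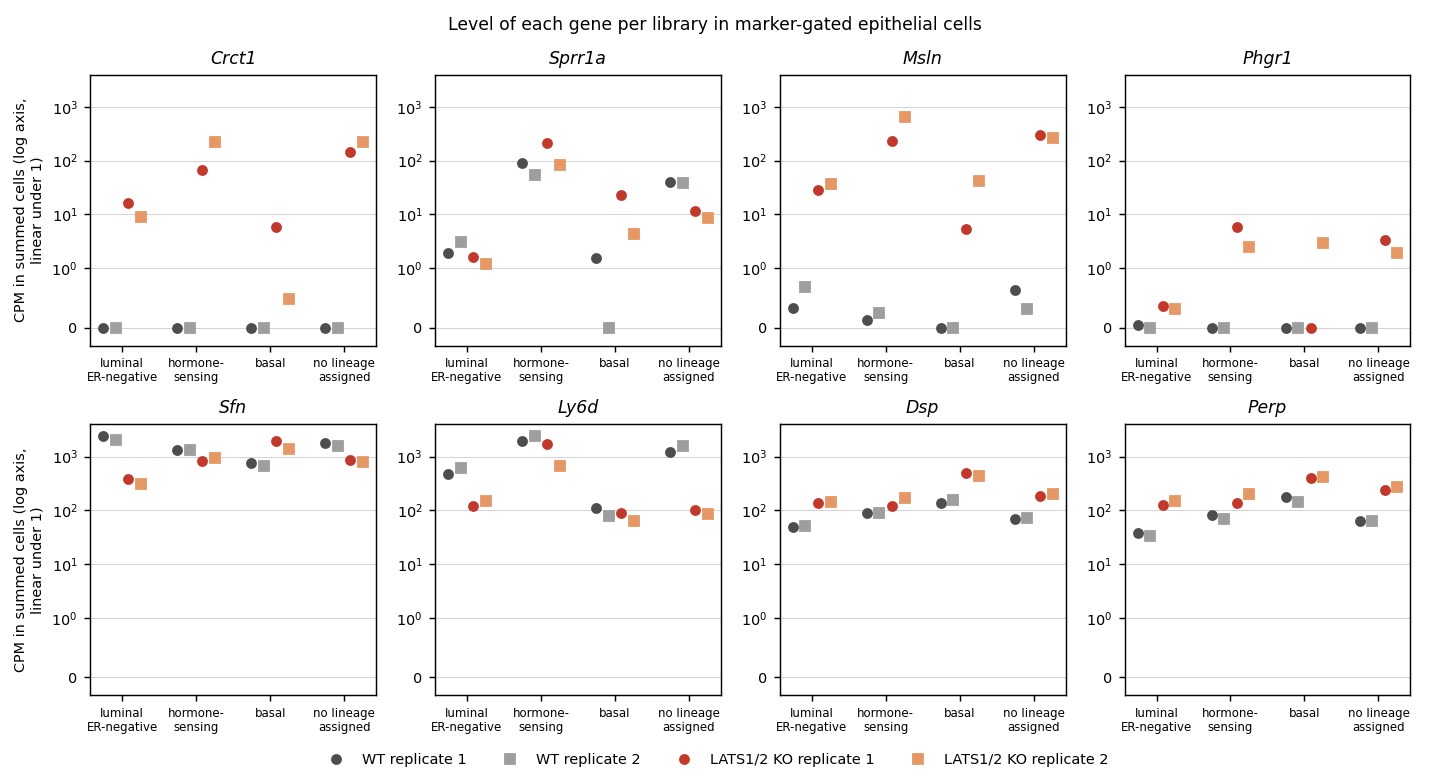
Level of each of the 8 genes (CPM, log axis) in luminal ER-negative, hormone-sensing and basal cells and cells without a lineage, 1 point for each of the 4 libraries. Crct1 and Msln lie far higher in knockout than in WT luminal cells and cells without a lineage, with little separation of Crct1 in basal cells, Sprr1a overlaps in hormone-sensing cells, and Sfn and Ly6d lie lower in knockout luminal ER-negative cells.

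Msln showed the same division between genotypes with a trace in WT. WT epithelium held 13 and 20 UMIs (0.285 and 0.477 CPM) and knockout epithelium 5017 and 5361 UMIs (147 and 150 CPM), a 389-fold ratio of the means of 148.6 ± 2.34 and 0.381 ± 0.136 CPM (SD, n = 2 mice each). Luminal ER-negative cells went from 0.339 and 0.674 CPM in WT to 28.5 and 37.3 CPM in knockout mice. Hormone-sensing cells went from 0.132 and 0.252 CPM to 228 and 637 CPM, with the second knockout mouse the higher. In cells without a lineage the levels were 0.63 and 0.322 CPM against 294 and 266 CPM, and 22.7% and 20.6% of the thinned knockout cells held a UMI. The non-epithelial background of 21.8 and 12.1 CPM, with a UMI in 1.5% and 2.05% of thinned cells, was below the 3.16% and 3.8% of luminal ER-negative cells. In basal cells the 5.24 CPM of replicate 1 lay below that background and the 41.5 CPM of replicate 2 above it.

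Msln is best known from mesothelium, so the other mesothelial genes were read in the same cells. The summed level of 7 mesothelial markers in luminal ER-negative cells was 1.20 and 0.899 CPM in WT and 0.93 and 1.39 CPM in knockout mice. In hormone-sensing cells it was 7.27 and 6.11 CPM against 29.8 and 39.3 CPM, with 5 of the 7 markers at 0 in each knockout library. In cells without a lineage it was 3.78 and 3.22 CPM against 4.35 and 8.96 CPM. The sum of 7 intestinal markers, read for Phgr1, was 7.07 and 11 CPM in WT and 2.43 and 3.89 CPM in knockout hormone-sensing cells.

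Phgr1 was rare in every class. Its UMIs numbered 1 and 0 in WT and 72 and 40 in knockout epithelium (2.11 and 1.12 CPM), a pooled ratio of 140.2 with a counting interval of 24.7 to 5587. Only 20 and 23 knockout cells held a UMI. In hormone-sensing cells it was 0 and 0 CPM in WT and 5.74 and 2.43 CPM in knockout mice, or at least 48.6-fold higher, but this rests on 26 and 5 UMIs, of which 1 and 0 were left (0.33 and 0 CPM) under a stricter gate, in which the markers of the class had to lead by 1 in place of 0.5. In luminal ER-negative cells it was 0.0376 and 0 against 0.372 and 0.309 CPM. The non-epithelial level of 1.94 and 0.441 CPM was as high as the luminal ER-negative level, which is therefore not read as expression.

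Sprr1a departed from the wording of the rule. It was present in the hormone-sensing cells of both WT mice at 89.5 and 54.6 CPM, and in those of knockout mice at 209 and 83.5 CPM, so that knockout replicate 2 lay below WT replicate 1. In luminal ER-negative cells it was low in all mice, at 1.88 and 3.06 CPM in WT and 1.61 and 1.18 CPM in knockout mice. The mean of non-epithelial cells, 4.17 CPM in WT and 3.13 CPM in knockout mice, was higher. The luminal ER-negative level is therefore not read as expression. In cells without a lineage Sprr1a was lower in knockout mice, at 11.6 and 8.71 CPM against 40 and 38.6 CPM. The make-up of these cells differed between genotypes. Their hormone-sensing markers summed to 3725 and 3473 CPM in WT and to 329 and 206 CPM in knockout mice. Level and composition cannot be told apart there. In basal cells it was near 0 in WT, with 1 and 0 UMIs against 35 and 9 (22.9 and 4.39 CPM) in knockout mice, a pooled ratio of 16.3 with a counting interval of 2.77 to 657.8. Over the whole epithelium its level was 33.6 and 25.2 CPM in WT and 33.5 and 8.69 CPM in knockout mice, and the groups overlapped.

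The desmosomal pair was higher in knockout mice in all 3 lineages. Dsp in luminal ER-negative cells was 49.3 and 51 CPM in WT and 139 and 142 CPM in knockout mice, a 2.8-fold ratio of means. In hormone-sensing cells it was 89.8 and 89 against 121 and 168 CPM, and in basal cells 139 and 156 against 494 and 444 CPM. Perp in luminal ER-negative cells was 38 and 33.1 CPM against 123 and 152 CPM, a 3.87-fold ratio. In hormone-sensing cells it was 81.8 and 70 against 137 and 197 CPM, and in basal cells 173 and 140 against 399 and 425 CPM. WT and knockout mice did not overlap for either gene in any lineage. After TMM scaling the luminal ER-negative differences were 1.14 for Dsp and 1.60 for Perp on the log2 scale. Both were also higher in knockout non-epithelial cells, Dsp at 21.3 and 26.9 against 8.7 and 10.8 CPM and Perp at 20.5 and 21.9 against 9.5 and 5.41 CPM.

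Sfn and Ly6d were lower in knockout luminal cells. Sfn in luminal ER-negative cells was 2376 and 2030 CPM in WT and 387 and 303 CPM in knockout mice, 6.39-fold lower by the means. In hormone-sensing cells it was 1337 and 1328 against 825 and 924 CPM, while in basal cells it was higher in knockout mice, at 773 and 670 against 1922 and 1382 CPM. Ly6d in luminal ER-negative cells was 469 and 621 CPM against 120 and 150 CPM, 4.05-fold lower. In hormone-sensing cells it was 1964 and 2375 against 1682 and 659 CPM, and in basal cells, at 109 and 77.5 against 89.7 and 63.9 CPM, the groups overlapped. Non-epithelial cells were lower in knockout mice too. Mean Sfn there was 231 CPM in WT and 80.2 CPM in knockout mice, and mean Ly6d 126.6 and 42.8 CPM. The part of free RNA was not tested. Basal Ly6d in WT lay below the non-epithelial level and is not read as expression. The largest gap for Ly6d was in cells without a lineage, at 1196 and 1581 CPM in WT and 103 and 84.5 CPM in knockout mice, 14.8-fold lower by the means. As given for Sprr1a, this class held far fewer hormone-sensing marker UMIs in knockout mice. Level and composition cannot be told apart in this gap.

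Set beside all genes, of the 7 members that passed the low-count filter in luminal ER-negative cells 4 were higher and 3 lower in both knockout mice than in both WT mice, where 58.8% and 24% of all 13342 genes tested were. In hormone-sensing cells 5 were higher and 2 lower of 8 (background 38.7% and 31.9%), and in basal cells 3 were higher and 0 lower of 4 (background 39.5% and 28.7%). These counts describe the choice of members, and nothing is read from them. Crct1, Msln and Phgr1 could pass that filter only through the knockout libraries.

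The EYFP reporter gives a comparison within the knockout mice that did not choose the members. EYFP-positive cells, with at least 1 EYFP UMI, were set against cells with none from the same mouse, and the counts summed per mouse and status were fitted with edgeR's quasi-likelihood test with the mouse as block and Benjamini-Hochberg adjustment over all genes. With 2 mice such a fit has 1 residual degree of freedom, and its p-values rest mostly on the spread shared across genes, which edgeR weighted as 10.4 prior degrees of freedom in luminal ER-negative, 11 in all epithelial and 6.12 in hormone-sensing cells. They should be read beside the values of each mouse. EYFP-positive cells were also deeper: their median was 13887 against 6768.5 UMIs in luminal ER-negative cells of replicate 1 and 15084 against 7203 UMIs in replicate 2. Each cell was therefore also thinned to 2000 UMIs, which evens the depth and leaves fewer molecules, and calls that ended are named with their thinned difference. Basal cells held only 5 and 20 EYFP-positive cells and were not tested.

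Crct1 and Msln were higher in EYFP-positive luminal ER-negative cells in both mice. Crct1 was 44.8 against 7.29 CPM in replicate 1 and 18.4 against 5.43 CPM in replicate 2, a log2 fold change of 2.23 ± 0.19 (SE, edgeR, adjusted p = 1.19e-05). Msln was 62 against 18.2 CPM and 89.8 against 16.9 CPM, a log2 fold change of 2.10 ± 0.13 (adjusted p = 1.76e-06). The EYFP = 0 levels lay close to the non-epithelial background of each gene, given above, and far above WT for Msln. Under the stricter gate the Crct1 difference was 1.37 and remained called, in a fit that weighted the shared spread as 245 prior degrees of freedom. The whole class then held 10 and 5.86 CPM of Crct1 and 11.1 and 20.9 CPM of Msln. Crct1 thus lay above the non-epithelial level in replicate 1 and below it in replicate 2, and Msln the reverse. Without the mouse as block the Msln difference was called (adjusted p = 0.0404) and that of Crct1 was not (adjusted p = 0.075).

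Perp and Sfn were also higher with EYFP in this class, by less. Perp was 158 against 112 CPM and 234 against 120 CPM (log2 0.73 ± 0.09, adjusted p = 0.00011), and the difference was 0.49 in replicate 1 alone and 0.93 in replicate 2 alone. Sfn was 448 against 368 CPM and 372 against 276 CPM (log2 0.34 ± 0.05, adjusted p = 0.000661), a call that ended when cells were thinned to 2000 UMIs (log2 0.26, adjusted p = 0.092). Neither was called without the block (adjusted p = 0.11 for Perp and 0.333 for Sfn). Dsp did not pass the test, at 132 against 141 CPM and 159 against 135 CPM (log2 0.06 ± 0.07, adjusted p = 0.587), and neither did Sprr1a at 1.06 against 1.78 and 0.922 against 1.29 CPM (log2 -0.63 ± 0.49, adjusted p = 0.37). Ly6d differed in direction between the mice, at 72 against 134 CPM in replicate 1 and 165 against 144 CPM in replicate 2 (log2 -0.27 ± 0.16, adjusted p = 0.238), and passed only after thinning (log2 -0.44, adjusted p = 0.0338), in a fit that weighted the shared spread as 40.8 prior degrees of freedom. Of the 7 members tested 4 were called higher and 0 lower, where 14.6% and 14.1% of the 12128 genes tested were called. Phgr1, with 2 to 4 UMIs in each of the 4 sums, was removed by the low-count filter.

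**Figure D2:**
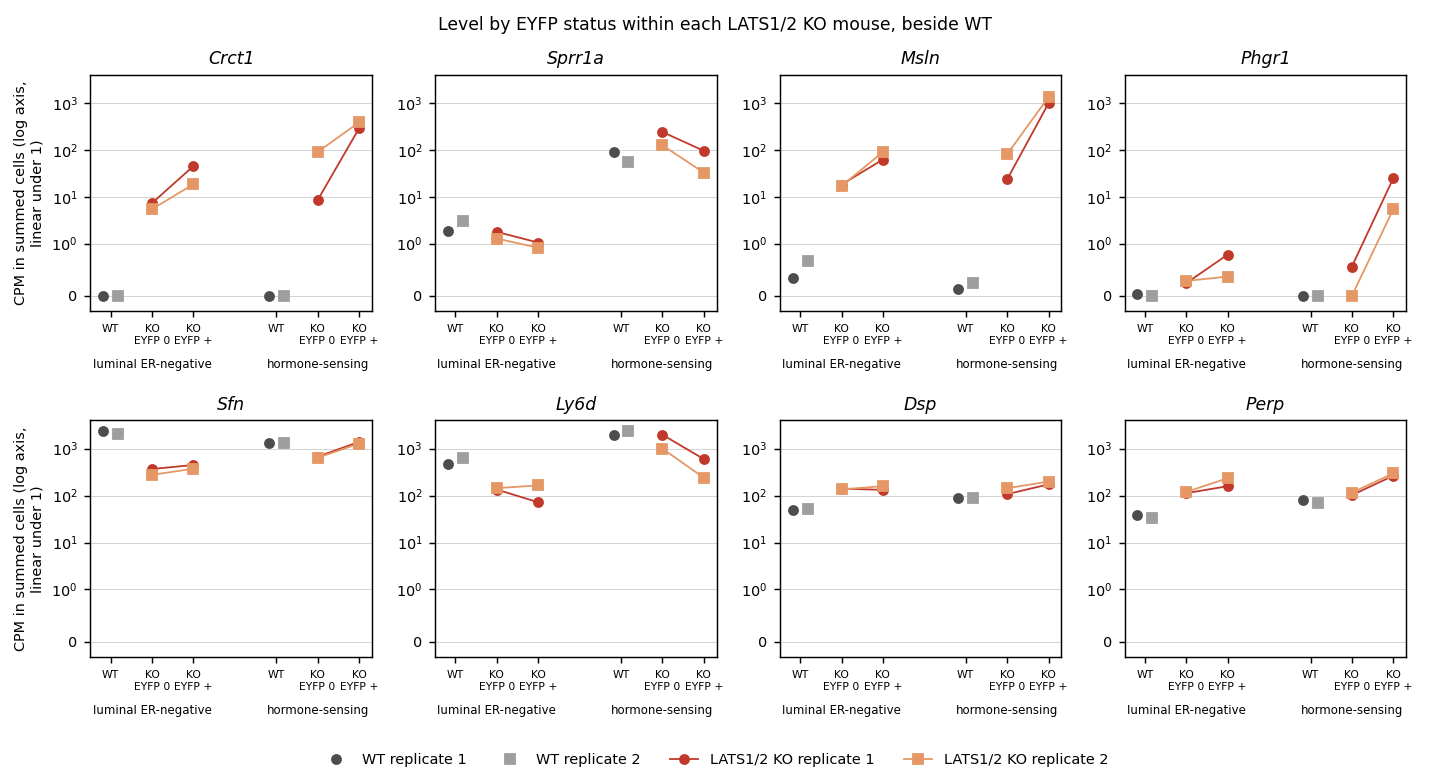
Level of each gene (CPM, log axis) in EYFP-positive and EYFP = 0 cells of the 2 knockout mice, with lines joining the 2 statuses of a mouse and WT levels beside them. Msln and Crct1 rise along both lines in luminal ER-negative cells, from 18.2 to 62 and 16.9 to 89.8 CPM for Msln.

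For Dsp, Perp, Sfn and Ly6d the EYFP = 0 cells of knockout mice already stood apart from WT. In luminal ER-negative cells the mean Dsp level was 138 CPM in knockout EYFP = 0 cells and 50.1 CPM in WT, and that of Perp was 116 against 35.6 CPM. Sfn was at 322 against 2203 CPM and Ly6d at 139 against 544.9 CPM. The EYFP = 0 cells were 1458 of 1707 and 1519 of 1839 cells of the knockout class. That they share its direction was therefore nearly fixed in advance, and nothing is read from it. For Sfn the EYFP-positive cells lay nearer to WT than the EYFP = 0 cells did. These values belong to the contrast that chose the members and carry no test.

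Over all knockout epithelial cells, cells without a lineage included, 5 of 8 members were called higher and 2 lower in EYFP-positive cells, where 21.3% and 22% of 13361 genes were. Msln was 341.6 against 57.2 CPM in replicate 1 and 309 against 43.6 CPM in replicate 2 (log2 2.70 ± 0.07, adjusted p = 3.29e-10). Crct1 was 151 against 28.1 CPM and 208 against 15.9 CPM (log2 3.03 ± 0.20, adjusted p = 3.03e-07), with 2.43 in replicate 1 alone and 3.72 in replicate 2 alone. Phgr1 was 5.66 against 0.471 CPM and 1.81 against 0.656 CPM (log2 2.65 ± 0.43, adjusted p = 0.00039), resting on 61 and 26 UMIs in EYFP-positive cells, with 3.57 in replicate 1 alone and 1.46 in replicate 2 alone. Phgr1 could pass the low-count filter only through the EYFP-positive sums, where it was high. Its call is therefore not read as support, and it limits what the count of 5 shows. Once thinned, Phgr1 no longer passed the filter.

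Perp and Sfn were higher in both mice on this wider count as well. Perp was 218 against 158 CPM and 273 against 171 CPM (log2 0.57 ± 0.07, adjusted p = 2.9e-05), and Sfn was 832 against 618 CPM and 679 against 496 CPM (log2 0.44 ± 0.05, adjusted p = 2.68e-05). Ly6d and Sprr1a were lower. Ly6d was 106 against 418 CPM and 110 against 180 CPM (log2 -1.34 ± 0.19, adjusted p = 0.000179), and DESeq2 did not call it (adjusted p = 0.101); in replicate 1 alone it was -1.97 and in replicate 2 alone -0.70. Sprr1a was 15.5 against 41.8 CPM and 6.56 against 10.1 CPM (log2 -1.13 ± 0.16, adjusted p = 0.00013); it was lower in each mouse, but the levels of the 2 mice overlapped. Without the block the calls of Sfn, Ly6d and Sprr1a ended (adjusted p = 0.114, 0.053 and 0.258). Dsp did not pass the test, at 161 against 172 CPM and 176 against 184 CPM (log2 -0.08 ± 0.06, adjusted p = 0.294). Since the classes make up different shares of EYFP-positive and EYFP = 0 cells, this wider comparison mixes level and composition, and these cannot be told apart in it.

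Levels were also read by the number of EYFP molecules in a cell over all knockout epithelial cells, as a description with no test that mixes the classes. In cells with 0, 1, 2 and 3 or more EYFP UMIs Msln was at 57.2, 189, 432 and 372 CPM in replicate 1 and at 43.6, 138, 291 and 348 CPM in replicate 2, so that in replicate 1 the last level lay below the one before it. Perp stood at 158, 178, 198 and 233 CPM in replicate 1 and at 171, 214, 262 and 287 CPM in replicate 2, higher at each step in both mice, but within luminal ER-negative cells of replicate 1 the levels of 112, 139, 127 and 172 CPM did not keep that order. Crct1 had no such order, at 28.1, 77.1, 404 and 130 CPM in replicate 1 and at 15.9, 634, 26.6 and 139 CPM in replicate 2. The 634 CPM came from 1452 UMIs, of which a single cell held 1401. The place of that level in the order of replicate 2 thus depends on 1 cell. Sfn was at 618, 622, 913 and 882 CPM and at 496, 469, 608 and 732 CPM. Dsp was not ordered either and lay between 153 and 179 CPM and between 169 and 199.6 CPM. The deepest cells were in the last bin, with medians of 16904.5 and 18170 UMIs against 6715 and 6442 in cells with none, and the part of depth in this order was not tested.

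**Figure D3:**
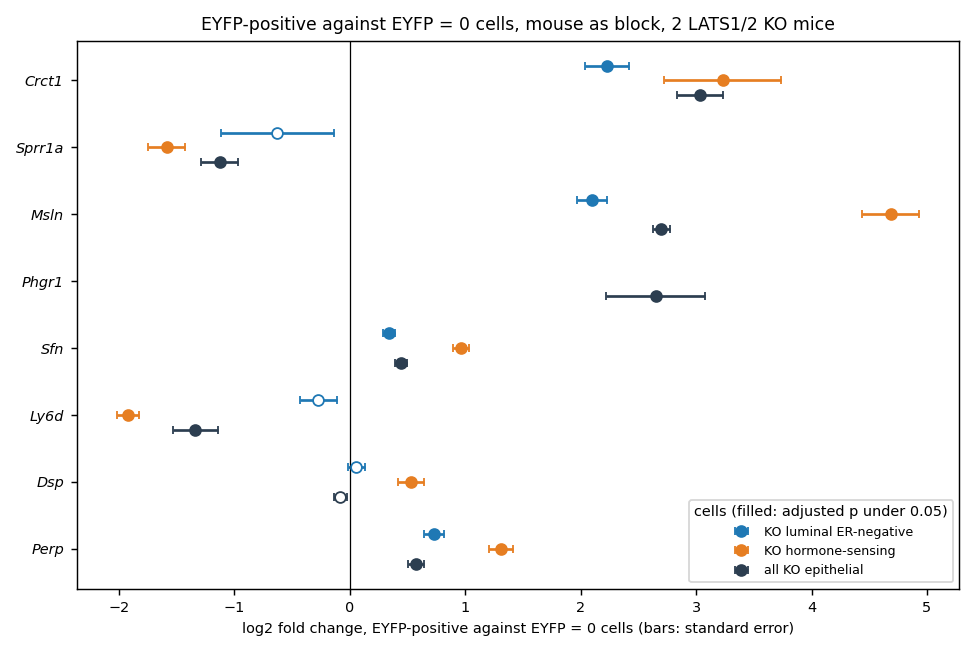
Log2 fold change of EYFP-positive over EYFP = 0 knockout cells for each gene and class, with standard errors from edgeR and a line at 0. Msln and Crct1 lie between 2.10 and 4.69 in each comparison, Dsp lies near 0 outside hormone-sensing cells, and Ly6d and Sprr1a lie below 0.

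In hormone-sensing cells 7 members could be tested, and most of these calls depended on cells close to the limit of the class. The class held 76 and 62 EYFP-positive against 409 and 112 EYFP = 0 cells, and the summed level of its 9 defining markers was 2391 and 2155 CPM in EYFP-positive against 5970 and 5987 CPM in EYFP = 0 cells. Msln was 978 against 23.3 CPM and 1326 against 80 CPM (log2 4.69 ± 0.25, adjusted p = 4.62e-05), and Crct1 was 284 against 8.43 CPM and 381 against 89.6 CPM (log2 3.23 ± 0.51, adjusted p = 0.0044). In replicate 1 alone these differences were 5.33 for Msln and 5.00 for Crct1, and in replicate 2 alone they were 3.99 and 2.02. Perp (log2 1.31 ± 0.10, adjusted p = 0.000183), Sfn (0.96 ± 0.07, adjusted p = 0.000153) and Dsp (0.53 ± 0.11, adjusted p = 0.0162) were higher. Ly6d, at 599 against 1976 CPM and 240 against 999 CPM, fell by 1.93 ± 0.10 (adjusted p = 3.77e-05), and Sprr1a, at 94.9 against 240 CPM and 32.6 against 125 CPM, fell by 1.59 ± 0.16 on the log2 scale (adjusted p = 0.000657). Of the 7 members tested 5 were called higher and 2 lower, against 12.3% and 10.7% of 8366 genes. Crct1, at 8.43 CPM in the EYFP = 0 cells of replicate 1, could pass the low-count filter only with EYFP-positive sums. Its call is therefore not read as support, and it limits what this count shows.

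When the class was held to a margin of 1 in place of 0.5, which left 339 and 109 knockout cells, the calls for Perp, Sfn, Ly6d and Sprr1a ended (log2 0.16, 0.25, -0.51 and -0.37) and Dsp turned to -0.20 (adjusted p = 0.846). Crct1 in the whole class was at 6.27 and 10.7 CPM, near the non-epithelial background, against 67.4 and 220 CPM before, and was not tested. Msln was at 11.9 and 142 CPM, against 228 and 637 CPM before, and its EYFP difference was still called (log2 5.08, adjusted p = 1.88e-05), although the smallest of the 4 sums then held 21 cells. Sprr1a kept its level, at 261 and 117 CPM against 96.2 and 51.5 CPM in WT, and under this margin its 2 genotypes no longer overlapped. Most Crct1 and Msln UMIs of the class were thus in cells with a smaller lead of hormone-sensing markers, and most Sprr1a UMIs in cells with a larger one. The Dsp call also ended with DESeq2 (adjusted p = 0.329) and after thinning (log2 0.30, adjusted p = 0.5).

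A direct test of whether the EYFP difference varied between the 2 luminal classes called 3 of 8 members, where 12% of 11560 genes were called. The difference was larger in hormone-sensing cells by 2.58 ± 0.34 on the log2 scale for Msln (adjusted p = 0.000306) and by 0.59 ± 0.12 for Sfn (adjusted p = 0.00633), and lay lower for Ly6d, by -1.75 ± 0.52 (adjusted p = 0.0451). Perp at 0.53 ± 0.17 (adjusted p = 0.0562), Phgr1 at 4.24 ± 1.35 (0.0585), Dsp at 0.45 ± 0.16 (0.0829), Sprr1a at -1.05 ± 0.62 (0.32) and Crct1 at 0.99 ± 0.86 (0.527) did not pass. With the stricter margin none of the 3 calls held (adjusted p = 0.0992, 0.971 and 0.809), at values of 3.32 for Msln, 0.05 for Sfn and -0.40 for Ly6d. Without the block the Msln value was called (adjusted p = 0.0275), and those of Sfn (0.165) and Ly6d (0.158) were not. The Msln value was 3.54 in replicate 1 alone and 1.60 in replicate 2 alone, that of Ly6d -0.90 and -2.30, and DESeq2 did not call Ly6d (adjusted p = 0.385).

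Within WT glands, where no Cre was present, the members have a lineage pattern of their own. Hormone-sensing cells exceeded luminal ER-negative cells for Sprr1a (72 ± 24.7 against 2.47 ± 0.832 CPM, SD, n = 2 mice, log2 4.63 ± 0.23, adjusted p = 9.76e-09) and for Ly6d (2170 ± 290.7 against 544.9 ± 108 CPM, log2 1.77 ± 0.07, adjusted p = 9.08e-10). Perp (log2 0.86 ± 0.09) and Dsp (0.60 ± 0.09) were higher there too, and Sfn was lower (-0.96 ± 0.06, adjusted p = 9.85e-08). These 4 higher and 1 lower calls of 5 members tested compare with 32.1% and 32.2% of 13166 genes. Crct1, Msln and Phgr1 did not pass the filter in WT cells. With the mouse as block this fit had 1 residual and 10.2 prior degrees of freedom, so its p-values rest mostly on the spread shared across genes.

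Basal cells, the myoepithelial layer, carried more of the desmosomal pair and less of the luminal genes than luminal ER-negative cells in WT glands. Perp was higher by 1.95 ± 0.14 and Dsp by 1.37 ± 0.14 on the log2 scale (adjusted p = 5.78e-11 and 1.61e-08). Sfn lay lower (-1.80 ± 0.08, adjusted p = 5.9e-15), as did Ly6d (-2.73 ± 0.15, adjusted p = 3.03e-13), and Sprr1a, with 1 basal UMI, did not pass (-1.89 ± 1.23, adjusted p = 0.249). Of 5 members 2 were called higher and 2 lower, against 17% and 19.3% of 12477 genes. This fit had 1 residual and 21.6 prior degrees of freedom, so its p-values too rest mostly on the spread shared across genes. The WT order of mean Dsp and Perp levels was basal (147.9 ± 12 and 156.6 ± 23.5 CPM), hormone-sensing (89.4 ± 0.57 and 75.9 ± 8.37 CPM) and luminal ER-negative (50.1 ± 1.21 and 35.6 ± 3.44 CPM), without overlap between neighbours.

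Crct1 RNA was concentrated in few cells, and Phgr1, with 72 and 40 UMIs in all, in fewer still in replicate 1. In knockout replicate 2 a single cell held 1401 of 3325 UMIs (42.1%), and the 10 highest cells held 77.8%; in replicate 1 the highest cell held 154 of 2281 UMIs (6.75%) and the 10 highest 40%. Without the highest cell the level of replicate 2 was 53.9 in place of 93.2 CPM, and the EYFP difference over all epithelial cells was 2.60 in place of 3.03. Msln was spread wider, with 12.4% and 16.1% of its UMIs in the 10 highest cells, and Dsp, with 2.53% and 2.86%, and Perp, with 3.89% and 4.72%, wider still. Sprr1a in replicate 2 also rested on few cells, the 10 highest holding 59% of 310 UMIs.

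**Figure D4:**
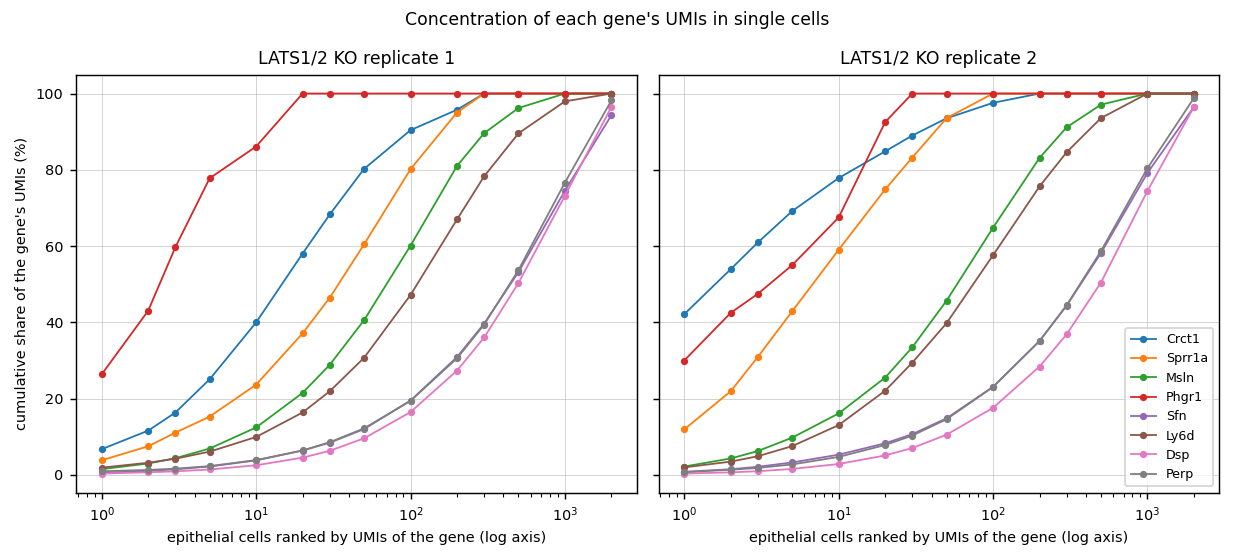
Cumulative share of a gene's UMIs (percent) against the number of cells, ordered from the highest, in the epithelium of each knockout library. Phgr1 and Crct1 climb fastest: 10 cells hold 86.1% of the 72 Phgr1 UMIs in replicate 1 and 77.8% of the Crct1 UMIs in replicate 2, while the curves of Sfn, Dsp and Perp lie lowest.

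The cells with at least 3 Crct1 UMIs, 92 and 73 in the 2 knockout mice, shared other features. Of them 71.7% and 64.4% had no lineage, and 70.7% and 79.5% were EYFP-positive against 19.1% and 24.4% of the other knockout epithelial cells. They were deeper, with medians of 12793 and 15120 UMIs against 7633 and 7734, and 3.26% and 1.37% of them were among the highest Scrublet doublet scores, against 3.07% and 3.78% of the others. The 325 and 322 cells with at least 3 Msln UMIs were alike in these respects, with 73.5% and 68.3% without a lineage and 63.4% and 74.8% EYFP-positive.

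Msln was detected in a larger share of cells with Crct1 than of cells without it. After each cell was thinned to 2000 UMIs, Msln was detected in 39% (95% exact binomial interval 30.9 to 47.6) of cells with Crct1 and in 8.47% (7.52 to 9.49) of cells without it in replicate 1, and in 40.7% (29.9 to 52.2) against 9.01% (8.01 to 10.1) in replicate 2. Ly6d ran the other way, in 10.6% against 22% and 8.64% against 14% of the same cells, with intervals that overlap in replicate 2. In Sprr1a-positive cells Ly6d was instead more frequent, in 60.6% (51.9 to 68.8) against 19.8% (18.4 to 21.2) and in 32.3% (16.7 to 51.4) against 13.6% (12.4 to 14.9). Sfn was also found in more of the Sprr1a-positive cells, in 68.6% against 56.5% and 77.4% against 50.8%. In Msln-positive cells Sfn was found in 73.6% against 55.2% and 66.3% against 49.4%, and Perp in 39.8% against 24.4% and 48% against 27.5%. Detection of Crct1 thus went with more frequent Msln, and that of Sprr1a with more frequent Ly6d. These are descriptions over the cells of 2 mice, where the cells of a mouse are not replicates and the intervals cover counting error only. The split pools all epithelial classes, and in WT Sprr1a and Ly6d were both higher in hormone-sensing than in luminal ER-negative cells.

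**Figure D5:**
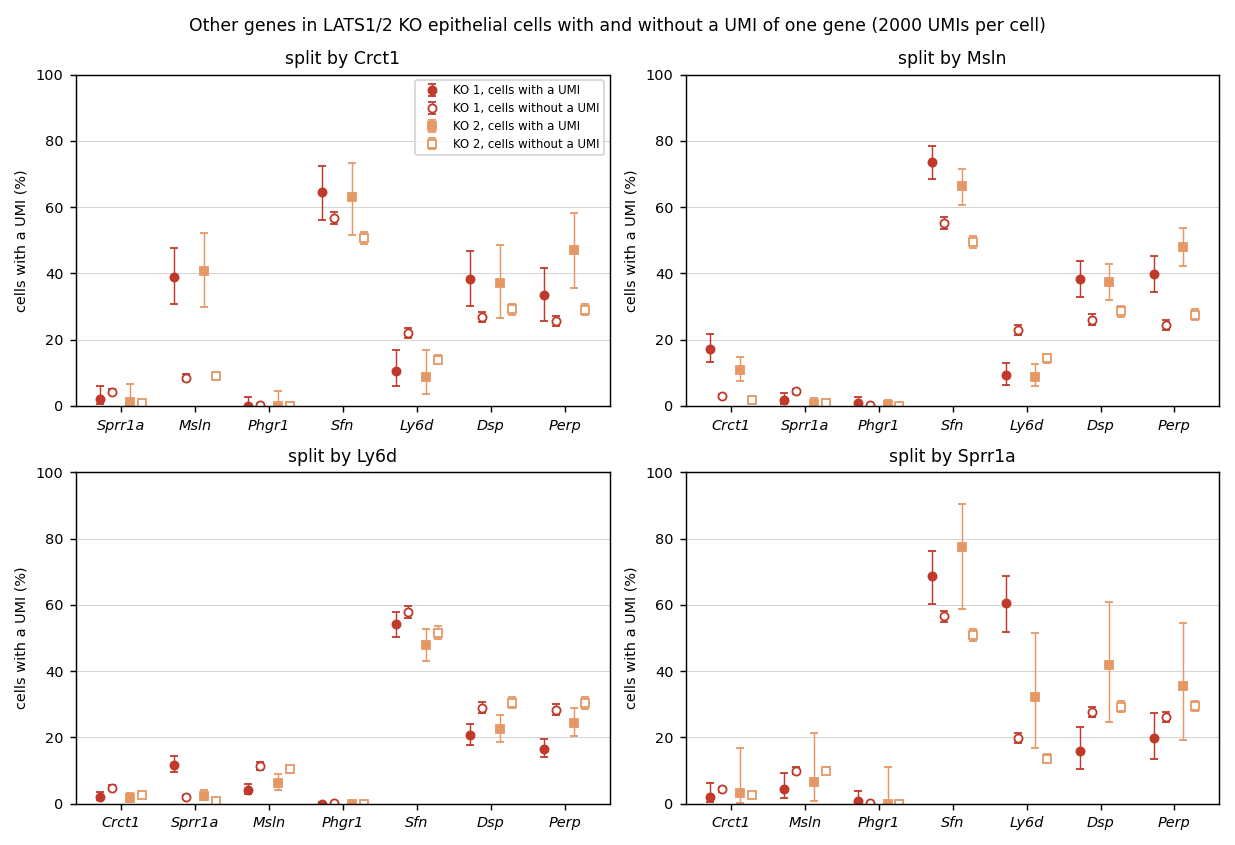
Share of cells (percent, after thinning to 2000 UMIs) with a UMI of one member among knockout epithelial cells with and without another, with 95% exact binomial intervals, for each knockout library. Msln is found in 39% and 40.7% of cells with Crct1 against 8.47% and 9.01% of cells without.

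The wider set of cornified envelope genes was detected in part. Of 46 envelope genes in the files, 24 had no UMI in any epithelial cell, 10 had UMIs in knockout epithelium and none in WT, and 0 had them in WT alone. No share over all genes is set beside these counts, so nothing is read from them. In luminal ER-negative cells 7 could be tested for knockout against WT, and 5 were higher and 0 lower (median log2 1.5 against 0.01 for all genes; 29.5% and 27.4% of all genes were called higher and lower). Lor and Lce1h, with 6 and 4 and with 0 and 0 UMIs in WT, could pass the low-count filter only through the knockout libraries and so could only be called higher, which limits what this count shows. Lor, the major envelope protein loricrin, was at 0.226 and 0.18 CPM in WT and 2.05 and 2.47 CPM in knockout mice (log2 3.09 ± 0.38, adjusted p = 0.000624), and Tchh, trichohyalin of the inner root sheath, rose by 1.79 ± 0.24 (adjusted p = 0.000901). Lce1h, a late envelope gene, was at 0 in both WT mice and at 0.558 and 2.37 CPM in knockout mice, at least 25.2-fold higher. The 7 keratinocyte markers, which include Lor and Dmkn of the envelope list, summed to 80.7 and 85.9 CPM in WT and 162 and 297 CPM in knockout luminal ER-negative cells, and 3 and 2 of them were at 0 in the knockout libraries. Lor was only a small part of these sums. In hormone-sensing cells the sums overlapped, at 43.9 and 39.5 against 41.1 and 65.1 CPM. They were 42.9 and 64 against 70.1 and 74.2 CPM in basal cells, and 56.4 and 59.5 against 148 and 344 CPM without a lineage.

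Between Sprr1a and Crct1 on chromosome 3 lie 528.31 kb and 28 protein-coding genes. Of these genes 18 had no UMI in epithelial cells and only 4 had at least 10 UMIs. Lce1h was counted 0 times in WT and 161 times in knockout epithelium and Lce1b 2 and 30 times, while Lce6a was counted 69 times in WT and 1 time in knockout mice and Ivl, involucrin, 15 and 7 times. The genes counted in this interval thus differed in direction, and most of the interval was not detected. With so few UMIs, whether its genes change as a block was not tested.

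Enzymes of cornification and desmosome genes are read against the same background of 29.5% higher and 27.4% lower. Of 13 cross-linking, protease and lipid enzyme genes tested in luminal ER-negative cells 4 were higher and 4 lower in knockout mice (median log2 0.11), close to that background: Casp14, the caspase of terminal keratinocyte differentiation, was at 0 in WT and at 3.29 and 5.31 CPM in knockout mice (at least 71.4-fold higher), Cst6 rose by 4.61 ± 0.23 (adjusted p = 2.29e-05), and Aloxe3, a lipoxygenase of the skin barrier, fell by 5.01 ± 0.34 (adjusted p = 5.59e-05). Of 8 desmosome genes besides the members 5 were higher and 2 lower (median log2 0.81). The desmosomal cadherin Dsg3 was at least 38-fold higher against 0 in WT, Dsc2 rose by 1.86 ± 0.23 (adjusted p = 0.000591) and Pkp2 fell by 0.99 ± 0.11 (adjusted p = 0.000404). Dsg3, and Casp14 and Klk6 of the enzymes, had 0 UMIs in WT. They could pass the low-count filter only through the knockout libraries and so could only be called higher, which limits what these counts show. Of 9 stratified-epithelium keratins, with a median log2 of -0.14, 3 were higher, Krt6a (log2 4.15 ± 0.55, adjusted p = 0.000846), Krt17 (3.93 ± 0.26, adjusted p = 4.98e-05) and Krt4 (1.61 ± 0.47, adjusted p = 0.022), and 2 were lower. Of 16 epidermal transcription factors, with a median log2 of -0.70, 9 were lower, among them Zfp750 (log2 -2.38 ± 0.15, adjusted p = 4.13e-05) and Klf4 (-1.72 ± 0.17, adjusted p = 0.000258). The 2 that were higher were Grhl3 (1.34 ± 0.32, adjusted p = 0.0109) and Maf (0.99 ± 0.30, adjusted p = 0.0256).

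With EYFP, over all knockout epithelial cells, 6 of 8 envelope genes tested were higher and 1 lower (median log2 0.87 against -0.01 for all genes), where 21.3% and 22% of all genes were called higher and lower, the background for the lists that follow as well. Lor rose by 1.06 ± 0.21 (adjusted p = 0.0015) and Lce1h by 1.18 ± 0.29 (adjusted p = 0.00604), while Dmkn fell by 1.15 ± 0.14 (adjusted p = 4.48e-05). The cornification enzymes split into 6 higher and 2 lower of 16 (median log2 0.08) and the keratins into 3 higher and 2 lower of 9 (median log2 -0.11). Krt6a rose by 1.95 ± 0.09 (adjusted p = 2.4e-08) and Krt17 fell by 0.95 ± 0.07 (adjusted p = 1.02e-06). The desmosome genes split into 3 higher and 3 lower of 8 (median log2 0.01), with Dsc2 higher (0.90 ± 0.12, adjusted p = 0.000102) and Pkp1 lower (-0.39 ± 0.08, adjusted p = 0.00181), and 0 of 17 epidermal transcription factors were higher and 12 lower (median log2 -0.45). Trp63, the lowest of them, is a marker of the basal class, which held few EYFP-positive cells. Within luminal ER-negative cells alone, where 14.6% and 14.1% of all genes were called higher and lower, 3 envelope genes were higher and 1 lower of 7 (median log2 0.40). The enzymes had 3 higher and 2 lower of 11 (0.09) and the keratins 2 and 1 of 7 (0.19). Desmosome genes had 0 higher and 2 lower of 8 (-0.07), and the transcription factors 0 and 11 of 16 (-0.52).

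The families of the other members were counted in the same comparison, against the same 21.3% higher and 22% lower of all genes. Of 13 Ly6-family genes besides Ly6d 5 were higher and 4 lower with EYFP (median log2 -0.13), from Psca (log2 4.04 ± 0.42, adjusted p = 1.43e-05) to Ly6k (-2.17 ± 0.26, adjusted p = 4.78e-05). Of 6 14-3-3 genes besides Sfn 5 were higher and 0 lower (median log2 0.21), the largest being Ywhae at 0.37 ± 0.05 (adjusted p = 0.000129). Of 18 p53 targets, the group to which Perp and Sfn also belong, 12 were higher and 4 lower (median log2 0.42), with Pmaip1 (1.21 ± 0.10, adjusted p = 2.62e-06) and Ccng1 (1.07 ± 0.09, adjusted p = 1.87e-06) among the higher and Fas (-1.04 ± 0.16, adjusted p = 0.000217) among the lower. In the knockout comparison of luminal ER-negative cells the same list had 7 higher and 7 lower of 18, with Cdkn1a falling by 1.71 ± 0.12 (adjusted p = 5.79e-05). Of 6 mesothelin-related genes 3 were higher and 2 lower with EYFP (median log2 0.34). Muc16, the ligand of mesothelin and also 1 of the 7 mesothelial markers, rose by 1.15 ± 0.26 (adjusted p = 0.00387), and Muc1 fell by 0.94 ± 0.12 (adjusted p = 9.36e-05). Within luminal ER-negative cells alone, against 14.6% higher and 14.1% lower of all genes, the p53 targets had 6 higher and 4 lower of 18 with EYFP (median log2 0.15). The 14-3-3 genes had 3 and 0 of 6 (0.14), the Ly6 family 1 and 1 of 9 (-0.07), and the mesothelin-related genes 2 and 1 of 5 (0.15).

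The genes whose levels followed Crct1 most closely were Bid (Pearson r = 0.937), a proapoptotic BH3 protein, Adam8 (0.937), a metalloprotease, Mphosph6 (0.936), Gm44275 (0.935) and Serpinb9b (0.933). The likeness was measured on log2(CPM + 1) over 23 sums of cells by library, class and EYFP status among 13146 genes, and the sums share libraries and genotype, so it is a description of these sums. Bid, for example, was at 4.66 and 3.67 CPM in WT luminal ER-negative cells without EYFP. In knockout cells of that class it was at 15.7 and 12.6 CPM without EYFP and at 23.2 and 23.2 CPM in EYFP-positive cells.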

How the data were processed

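Single-cell RNA was measured in mammary glands of 2 WT and 2 LATS1/2 KO mice, with 1 library per mouse. The deposited values are raw UMI counts per gene and barcode, which the authors made with Cell Ranger (3.1.0 in the submitters' processing notes, 6.1.2 in the matrix header) on mm10, filtered to called cells and not normalized. Loci are from GENCODE on GRCm38.

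A barcode was retained if it had over 500 genes and a mitochondrial share below 20%. Each marker's depth-scaled log UMI count was divided by its SD and averaged per marker list. A cell was epithelial where an epithelial score exceeded all stromal and immune scores, and it was given a lineage with at least 3 detected markers and a lead of 0.5. These limits were set after marker levels were seen. Doublets were kept in the main analysis, because Scrublet's own threshold marked 84 cells. The alternative removed the 676 highest scores (0.8% per 1000 cells).

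Counts were summed per library and class (at least 20 cells) and analysed in R 4.3.3 by the quasi-likelihood test of edgeR 4.0.16, with genes filtered by filterByExpr, TMM scaling, and Benjamini-Hochberg adjustment over all genes (threshold 0.05). The scripts were first tested on simulated data. There the false share of calls ranged from 3.74% to 13.5%, so it exceeded the threshold in most comparisons. It was highest for WT hormone-sensing against luminal ER-negative cells, with 11.5% for the test between luminal classes and 9.04% for EYFP in hormone-sensing cells. Simulated 2-fold changes were recovered in 41.7% to 85.7% of cases. EYFP status and WT classes were compared with the mouse as block, since both sums of a pair come from the same mouse. The KO vs WT fit had no block. Nothing beyond the 2 mice per group gives replication. The p-values rest more on the spread shared across genes, which had more degrees of freedom in each main fit, than on the spread between these mice. Values for 1 mouse alone were fitted at a fixed dispersion and carry no test. Levels are CPM, and a count of 0 was set to a floor of 3 counts over the group for lower bounds. Intervals are 95% exact binomial or Poisson and cover counting error only. Single cells were handled with Python 3.11.15, scanpy 1.11.5 and scipy 1.17.1.

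The members and gene lists were chosen with earlier results of these data known. Named genes are the 8 members, up to 3 highest and 3 lowest called genes of each list without overlap, and the 5 genes most correlated with Crct1. Alternatives were RLE scaling, DESeq2 1.42.0, no low-count filter, a 10% mitochondrial limit, a lead of 1 (the stricter gate), removal of high Scrublet scores, thinning to 2000 UMIs (1561 shallower cells left out), at least 2 EYFP UMIs, the block, and leaving out each mouse. Leaving out the cell with the most Crct1 UMIs, and the alternatives of the test between luminal classes, were added after seeing the data.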

Additional observations from a re-analysis of the deposited data

Results flagged for a closer look

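The difference between EYFP-positive and EYFP = 0 knockout cells varied between the 2 luminal classes for 3 members by the test of that difference (edgeR): Msln by 2.58 and Sfn by 0.59 on the log2 scale toward hormone-sensing cells, and Ly6d by -1.75. With the stricter gate the values were 3.32, 0.05 and -0.40, and none of the 3 was called.

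Members were also counted in cells outside the epithelium, which the comparisons did not use. In the knockout library with the lower level, non-epithelial cells held 6.46 CPM of Crct1, 12.1 CPM of Msln, 0.441 CPM of Phgr1, 21.3 CPM of Dsp and 20.5 CPM of Perp, each above both WT libraries. In the higher WT library these cells held 0.791 CPM of Crct1, 1.58 CPM of Msln, 0 CPM of Phgr1, 10.8 CPM of Dsp and 9.5 CPM of Perp. The levels of the first 3 genes rest on 30 and 73, 101 and 110, and 9 and 4 UMIs in the 2 knockout libraries. The part of free RNA in them was not tested.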

How the results depend on the processing

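Counts of called genes moved with the replicate block, DESeq2, thinning to 2000 UMIs and the stricter gate, while of the alternative values of the members' tests 367 kept direction and call, 21 lost the call, 12 gained it, 43 moved without a test and 1 reversed. For KO vs WT, 7590 genes were called in luminal ER-negative cells (4697 thinned), 3766 in hormone-sensing cells (1586 thinned) and 2874 in basal cells (1324 with DESeq2, 1319 thinned). Leaving out 1 mouse gave 6005 to 7347, 2190 to 3244 and 1864 to 2301 genes, with the lowest hormone-sensing count without LATS1/2 KO replicate 2 and the lowest basal count without WT replicate 2. For EYFP status, 3484 genes in luminal ER-negative cells became 844 with DESeq2, 2005 with the stricter gate and 865 thinned; 1924 in hormone-sensing cells became 664, 105 and 602; and 5783 over all epithelial cells became 2499 with DESeq2 and 3181 thinned. In WT, 8476 calls of hormone-sensing against luminal ER-negative cells became 5634 with DESeq2, and 4538 of basal cells became 2386 with DESeq2 and 2956 thinned. The 1384 calls of the test between luminal classes became 877 with DESeq2, 15 with the stricter gate and 245 thinned. Dsp in hormone-sensing cells reversed to -0.20 with the stricter gate. The causes were not tested, except that thinning leaves fewer molecules and the stricter gate fewer cells.

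Without the replicate block, EYFP calls were 3 in luminal ER-negative cells and 1664 over all epithelial cells, and 541 for the test between classes; the luminal ER-negative calls of Crct1 (adjusted p = 0.075, edgeR), Sfn (0.333) and Perp (0.11) ended, as did those of Sprr1a (0.258), Sfn (0.114) and Ly6d (0.053) over all epithelial cells. For KO vs WT the replicate numbers are shared only as numbers (correlation of same-numbered deviations 0.038, -0.014 and 0.016 in luminal ER-negative, hormone-sensing and basal cells, 2 pairs each), and a replicate block gave 7616, 3211 and 2712 calls. The weight edgeR gave the spread shared across genes differed between settings: for EYFP status in luminal ER-negative cells it was 10.4 prior degrees of freedom, 4.92 without the block, 40.8 thinned, 245 with the stricter gate and without limit at 2 or more EYFP UMIs, and over all epithelial cells it was without limit when thinned. A call kept under such a weight says little about the spread between 2 mice. The stricter gate does not alter the sums over all epithelial cells, so those values are the same by construction.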
